A study of Mus musculus with 60 samples.

Results

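Genes of the synaptic vesicle cycle and of the synapse scaffold were followed in the neocortex of aging mice on 3 diets. The set holds 39 listed genes, and its members are every probe set of the Affymetrix Mouse Genome 430 2.0 array whose single gene symbol is one of them. Of the 39 genes, 38 have such a probe set, 90 probe sets together, out of 18193 genes with one, and Shank2 is not analysed here. The mice were male B6C3F1 hybrids, the offspring of C57BL/6 and C3H/He parents, housed singly, and RNA of 1 animal was hybridised to each array. Young controls were 5 months old and received the control diet. All old mice were 30 months old and from 14 months onwards had eaten either the AIN93M control diet, a calorie restricted (CR) diet that the labels call 40% restricted, while the energy intakes in the study's methods amount to a smaller restriction relative to the controls, or the control diet with resveratrol at 4.9 mg per kg of body weight per day. Each of these 4 groups has 5 neocortex arrays, of 60 arrays in the series, the others being of heart and gastrocnemius muscle. No group carries a transgene or an induced lesion, and a single hybrid cross and 1 sex limit the model.

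A neuron releases transmitter when a synaptic vesicle, filled by a transmitter transporter and docked at the active zone, fuses with the plasma membrane through SNARE proteins. Its membrane is then retrieved by endocytosis. On the receiving side, scaffold proteins hold receptors and kinases in place, and neurexins and neuroligins link the presynaptic and postsynaptic membranes. Transcripts of these genes are known as markers of neurons in cortex, and several of them are known to follow neuronal activity.

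The CR and resveratrol groups had lower signal than old controls for a large share of these genes, and no member was called with age. Of 38 members tested, 16 were lower and 5 higher under CR (42.1% and 13.2% of the members), against 17.7% and 13.3% of all 13057 genes tested. Under resveratrol 16 were lower and 3 higher, against 14.0% and 12.5% of all genes. With age 0 of the 38 passed the test in limma, where 0.383% of all genes were lower and 1.09% higher. Before adjustment 6 of the 38 had a p under 0.05 in limma. The shares of all genes are for adjusted calls, so that count of 6 cannot be set against them. A call here means an adjusted p under 0.05, by limma with Benjamini-Hochberg adjustment over all genes tested. Values are linear array signals, differences are on the log2 scale, and every group has n = 5. The median difference of the members was -0.25 under CR and -0.21 under resveratrol, while that of all genes was -0.03 and -0.003. For age the medians were -0.11 and 0.02. The 6 members with an unadjusted p under 0.05 for age were Homer1, Nptx1, Stx1a, Nptx2, Unc13a and Sncb, with differences of -0.49, -0.36, -0.33, -0.64, -0.30 and -0.21. In bulk tissue, fewer cells of a type and less RNA per cell cannot be told apart.

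**Figure D1:**
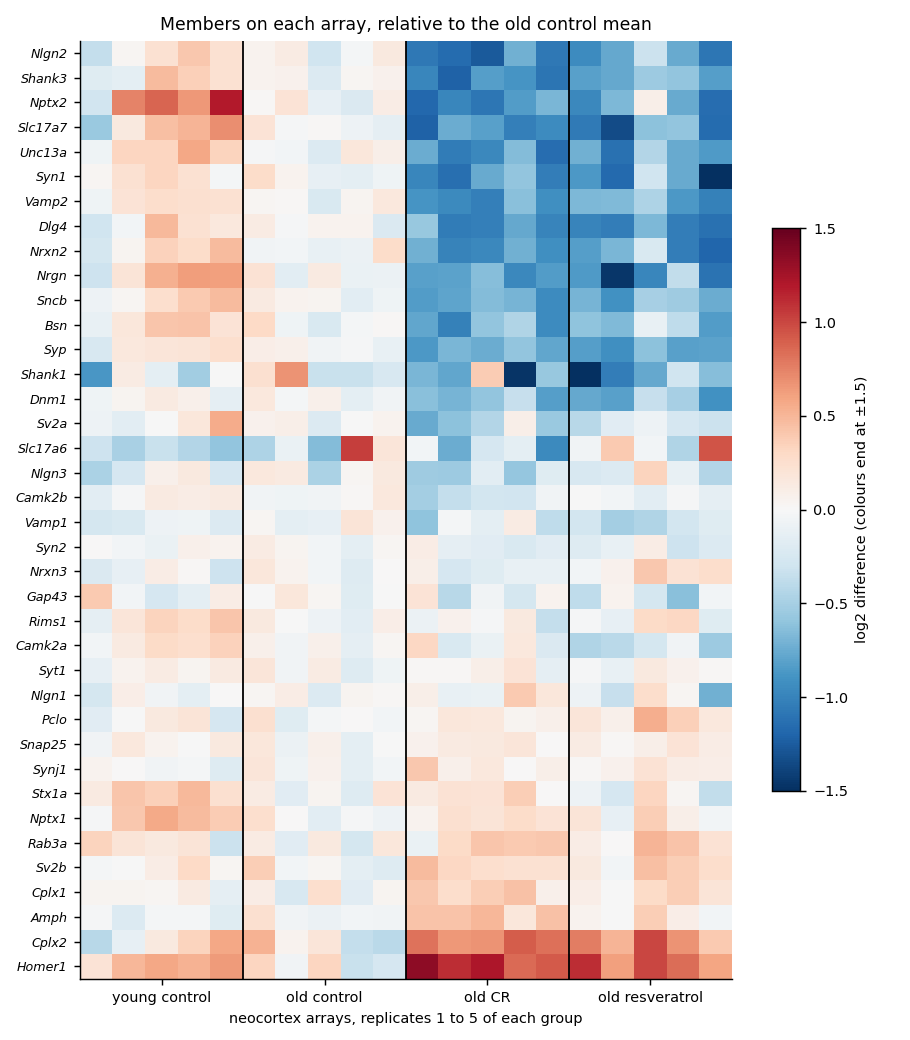
Signal of the 38 measured genes on each of the 20 neocortex arrays, as the log2 difference from the mean of the 5 old control arrays. Rows are ordered by the change under CR, columns are replicates 1 to 5 of each group, and colours end at a difference of 1.5. The upper block of genes is blue on nearly all 10 arrays of the 2 diet groups and pale on the control arrays, and Homer1 and Cplx2 at the foot are red on the diet arrays.

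The fall was seen on single arrays as well as in the means. For 14 members every CR array read under every old control array, against 11.7% of all genes, and for 13 members every resveratrol array did, against 9.85%. Both diets were called lower for 14 members, Syn1, Syp, Slc17a7, Vamp2, Unc13a, Bsn, Dnm1, Dlg4, Shank3, Nrxn2, Nlgn2, Nrgn, Nptx2 and Sncb. Both diets were called higher for 2, Cplx2 and Homer1. Of all genes tested, 1370 (10.5%) were lower and 842 (6.45%) higher in both diets. The 2 comparisons share the 5 old control arrays, so these joint counts are not 2 separate observations. The 14 members changed by -1.05 to -0.62 under CR and by -0.97 to -0.52 under resveratrol.

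The same diet arrays were also compared with the young controls, in the fit of all 20 arrays, which shares its estimate of the spread with the old control arrays. Against young controls, 16 members were lower and 5 higher under CR, where 18.4% of all genes were lower and 18.5% higher. Under resveratrol 18 were lower and 4 higher, where 16% were lower and 18.4% higher. The 14 members were called lower in both diets against young controls too, as were 1102 (8.44%) of all genes against both references. These joint counts use the same 10 diet arrays in every comparison. The 14 differed from young controls by -1.59 to -0.63 under CR and by -1.33 to -0.68 under resveratrol. Their differences with age ran from -0.64 to -0.01, none called. Under resveratrol Sv2a (-0.35), Camk2a (-0.54) and Nptx1 (-0.26) were also lower and Pclo (0.28) and Nrxn3 (0.29) higher than in young controls. Of these, the calls of Sv2a (without young control replicate 3, 4 or 5, old control replicate 1, 2, 4 or 5, CR replicate 3 or 5 or resveratrol replicate 1, 2, 4 or 5, adjusted p = 0.0501 to 0.165), Nptx1 (without young control replicate 2, 3, 4 or 5, old control replicate 2 or 4, CR replicate 2, 3 or 5 or resveratrol replicate 2, 4 or 5, 0.0503 to 0.132), Pclo (without young control replicate 1 or 5 or resveratrol replicate 3 or 4, 0.0522 to 0.0726) and Nrxn3 (without young control replicate 5 or resveratrol replicate 3, 0.0594 and 0.0565) were lost when 1 array was left out. Under CR the members higher than in young controls at their brightest probe set were Cplx1, Cplx2, Amph, Synj1 and Homer1. Probe sets of the same gene had opposite calls against young controls for Cplx1, Cplx2, Homer1 and Camk2a under CR. Under resveratrol they did for Cplx2, Pclo, Homer1 and Camk2a. In each diet, 2 of 3 tested probe sets of Cplx2 were lower than in young controls and 1 higher. For Homer1, 2 of 6 were lower and 1 higher in each diet.

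**Figure D2:**
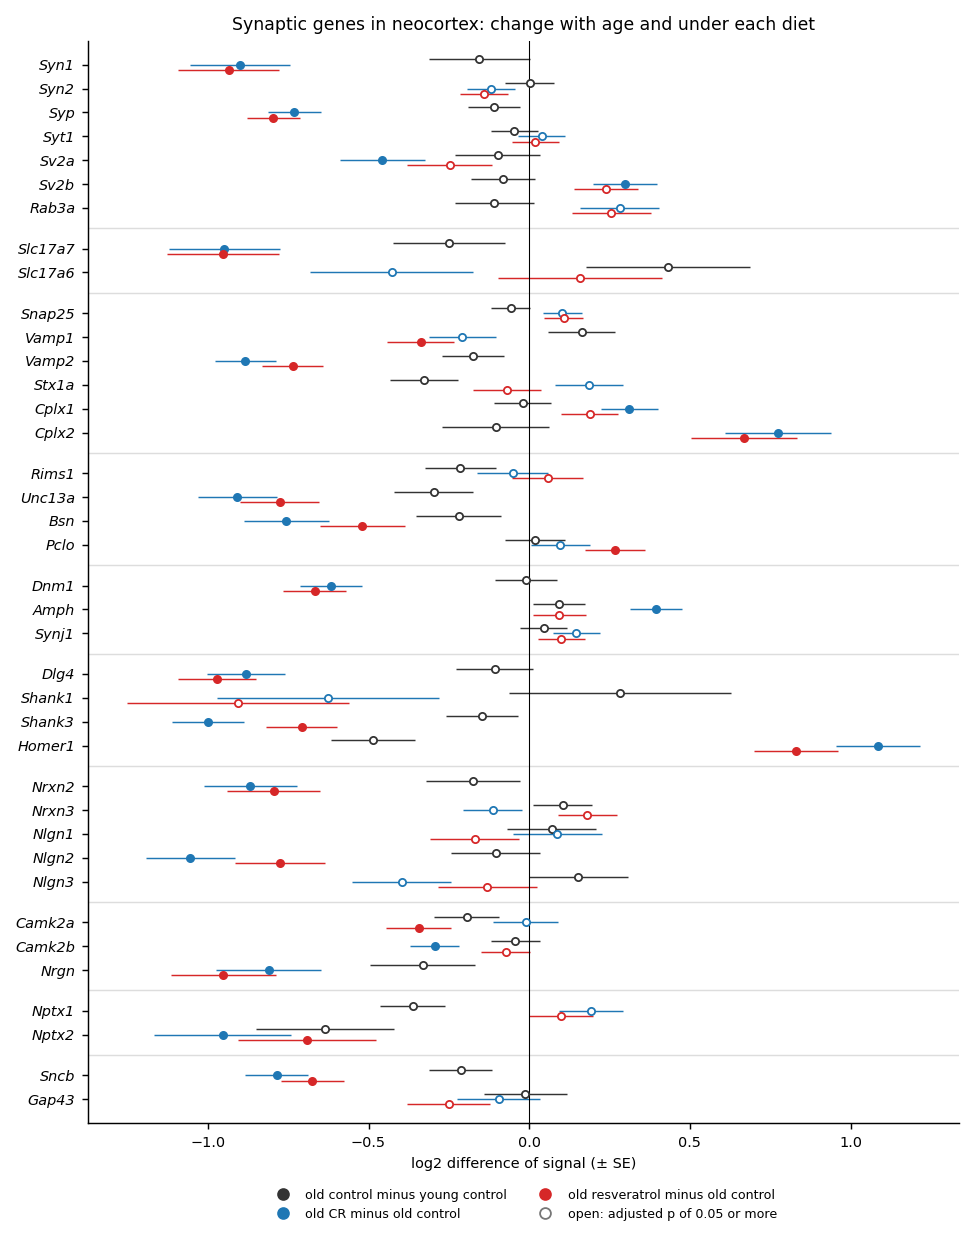
Difference in log2 signal of each gene, grouped by role, for age (black), CR (blue) and resveratrol (red), with the SE of the fit. Filled points have an adjusted p under 0.05. All age points are open, while the CR and resveratrol points of the 14 genes lower in both diets lie to the left at -0.52 or less.

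Promoter sequence was available for 29 of the 38 members in the RefSeq table of build GRCm38.p6, in 43 windows of the 250 bases before an annotated start. The stretches shown are those of 3 genes that were lower in both diets and hold a searched motif, and that of Homer1, which was higher in both. Capitals mark the motifs, searched on both strands as exact letters and not overlapping one another here: TTCAGCACC and GGACAG, the left and right parts of the RE1 site bound by the neuronal gene repressor REST, the cAMP response element TGACGTCA, and GCGTGGGCG, the site of the activity-induced EGR factors, which in Unc13a and Shank3 lies on the opposite strand. Each is written 5′ to 3′ along the strand of the gene.
Syn1, chrX:20920919-20921168, minus strand: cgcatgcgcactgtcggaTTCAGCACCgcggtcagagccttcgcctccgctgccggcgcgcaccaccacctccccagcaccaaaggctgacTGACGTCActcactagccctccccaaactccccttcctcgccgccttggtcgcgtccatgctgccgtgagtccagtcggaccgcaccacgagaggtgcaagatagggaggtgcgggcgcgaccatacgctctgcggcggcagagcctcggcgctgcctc
Unc13a, chr8:71671758-71672007, minus strand: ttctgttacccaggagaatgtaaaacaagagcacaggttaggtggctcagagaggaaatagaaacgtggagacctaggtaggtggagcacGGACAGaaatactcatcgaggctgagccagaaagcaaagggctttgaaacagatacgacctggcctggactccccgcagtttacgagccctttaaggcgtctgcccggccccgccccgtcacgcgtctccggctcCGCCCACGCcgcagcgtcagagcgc
Shank3, chr15:89499358-89499607, plus strand: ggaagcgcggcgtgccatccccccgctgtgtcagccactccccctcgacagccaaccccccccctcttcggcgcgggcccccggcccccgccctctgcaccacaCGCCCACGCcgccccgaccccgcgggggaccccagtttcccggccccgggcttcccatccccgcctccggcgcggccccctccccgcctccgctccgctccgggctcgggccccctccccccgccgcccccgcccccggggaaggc
Homer1, chr13:93303507-93303756, plus strand: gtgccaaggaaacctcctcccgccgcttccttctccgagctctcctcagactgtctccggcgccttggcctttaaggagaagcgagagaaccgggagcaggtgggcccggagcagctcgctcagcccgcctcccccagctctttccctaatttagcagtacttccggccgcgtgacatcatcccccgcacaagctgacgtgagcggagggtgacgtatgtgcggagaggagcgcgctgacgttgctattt
TTCAGCACC stood in 2 of the 43 member windows (Syn1 and Nlgn1) and in 0.301% of all 32851 windows. The EGR letters stood in 3, those of Shank3, Synj1 and Unc13a, and in 0.536% of all windows. TGACGTCA was in 1, that of Syn1, and in 1.55% of all. GGACAG was in 6 (Nlgn2, Nrxn3, Slc17a7, Sv2b, Syt1 and Unc13a), or 14.0%, against 18.7% of all windows. Synj1, Nlgn1, Syt1 and Nrxn3, which hold such letters, were not called under either diet against old controls, and Sv2b was higher under CR. A match of letters is a description of the sequence.

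Of the 7 synaptic vesicle proteins, 3 were lower and 1 higher under CR, and 2 were lower under resveratrol. Syp encodes synaptophysin, an abundant membrane protein of the vesicle. Its signals were 6369, 8425, 8592, 8664 and 9006 on the young control arrays and 8121, 7931, 7286, 7475 and 7006 on the old control arrays. Under CR, Syp read 4159.9, 4689.9, 4526, 5018 and 4406, and under resveratrol 4273, 3993, 4937, 4285 and 4316. All 10 diet arrays lay under all 10 control arrays. The difference from old controls was -0.73 (SE 0.082, adjusted p = 1.12e-06) under CR and -0.80 (SE 0.082, adjusted p = 4.55e-07) under resveratrol. Syn1 encodes synapsin, which tethers vesicles in the reserve pool, and its mean fell from 6704 ± 851 (SD) in old controls to 3605 ± 558 under CR and 3641 ± 1198 under resveratrol. These are differences of -0.90 (SE 0.157, adjusted p = 0.000147) and -0.94 (SE 0.157, adjusted p = 0.000123), again without overlap with either control group. The second synapsin gene, Syn2, was not called at its brightest probe set (-0.12 and -0.14), although further probe sets of it were lower, as described with the other probe sets.

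The calcium sensor of release, Syt1, was not called in any comparison at its brightest probe set. The old control mean was 16548 ± 1705, the CR mean 16983 ± 1481 and the resveratrol mean 16727 ± 1133. The 95% interval of the difference was -0.11 to 0.19 for CR and -0.13 to 0.17 for resveratrol. The related vesicle glycoproteins Sv2a and Sv2b differed in sign under CR, with -0.46 (SE 0.132, adjusted p = 0.0105) for Sv2a and 0.30 (SE 0.099, adjusted p = 0.0245) for Sv2b. The groups overlapped in both. The rise of Sv2b was no longer called without old control replicate 2, 4 or 5 or CR replicate 1 (adjusted p = 0.0518 to 0.0749). Rab3a, the small GTPase of docked vesicles, differed by 0.28 and 0.26, with adjusted p of 0.0856 and 0.131.

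Of the 2 vesicular glutamate transporters, the cortical form Slc17a7 (VGLUT1) was lower in both diets. Its mean was 4629 ± 1351 in young and 3746 ± 345 in old controls. The CR mean was 1946 ± 243 and the resveratrol mean 1971 ± 460.1. Every diet array lay under every control array, with -0.95 (SE 0.173, adjusted p = 0.000231) and -0.95 (SE 0.173, adjusted p = 0.000273) against old controls. Slc17a6 (VGLUT2), which is typical of thalamic and other subcortical neurons, was not called in any comparison. Its old control arrays ranged widely, at 904, 1168, 798, 2566 and 1414, and 1 of them stood far above the others.

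Among the 6 SNARE proteins and complexins, the SNARE gene of the vesicle, Vamp2, was lower in both diets. Its signals were 7784, 9380, 9801, 9575 and 9534 in young controls and 8280.3, 8219.6, 6937, 8338 and 9057 in old controls. Under CR, Vamp2 read 4419, 4186, 4003, 5250.1 and 4285, and under resveratrol 5085, 5125, 5916, 4484 and 4030.1. The highest diet array was under the lowest control array. The differences were -0.88 (SE 0.095, adjusted p = 6.42e-07) under CR and -0.74 (SE 0.095, adjusted p = 7.23e-06) under resveratrol. Vamp1, its relative, differed by -0.34 (SE 0.105, adjusted p = 0.0187) under resveratrol and by -0.21 under CR, which was not called. Without old control replicate 4 or resveratrol replicate 2 the call under resveratrol was lost (adjusted p = 0.0567 and 0.0537).

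The SNARE partners of the plasma membrane, Snap25 and Stx1a, were not called against old controls. Snap25 had means of 23653 ± 1523, 22756 ± 2031, 24382 ± 1171 and 24458 ± 1133 in young control, old control, CR and resveratrol arrays. Its 95% interval was -0.02 to 0.23 under CR and -0.02 to 0.23 under resveratrol, and it was not called in any comparison. Stx1a, syntaxin 1A, was lower under resveratrol than in young controls, with a difference of -0.40 (SE 0.106, adjusted p = 0.00575).

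Complexins clamp and trigger the assembled SNARE complex. At its brightest probe set Cplx2 read 3412, 4187, 5014, 5754 and 6780.4 in young controls and 6551, 4721, 5149, 3546 and 3442 in old controls. Under CR, Cplx2 read 8009.7, 7135, 7233, 8512 and 8037, and under resveratrol 7715, 6452, 9124, 7246 and 5981. All CR arrays were above all old control arrays, and the lower resveratrol arrays overlapped them. The differences were 0.77 (SE 0.165, adjusted p = 0.00104) and 0.67 (SE 0.165, adjusted p = 0.004). Cplx1 read 12336, 12353, 12208, 13109.6 and 10894 in young controls and 12926, 10125, 14319, 10686 and 12354 in old controls, and 15917, 14402, 15468, 16267 and 12622 under CR and 12839, 11985, 14577, 15432 and 13718 under resveratrol. Its groups overlapped, and it was called higher under CR, with 0.31 (SE 0.089, adjusted p = 0.0099). The difference under resveratrol was 0.19 and was not called, nor was that between the diets (adjusted p = 0.424).

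**Figure D3:**
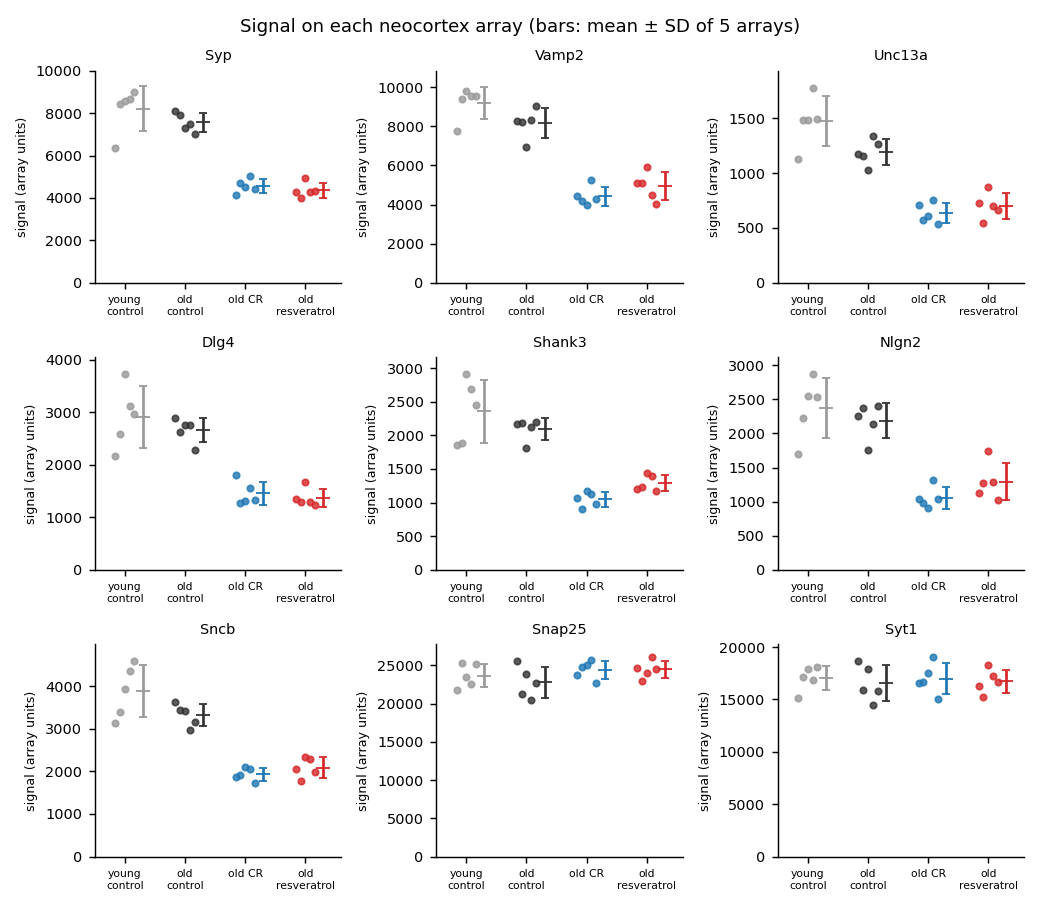
Signal of 9 genes on each of the 20 neocortex arrays, with the mean and SD of the 5 arrays of each group beside the points. In Syp, Vamp2, Unc13a, Dlg4, Shank3, Nlgn2 and Sncb the CR arrays lie under the control arrays, while Snap25 and Syt1 overlap in all 4 groups.

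Of the 4 active zone genes, Unc13a and Bsn were lower in both diets, Rims1 was not called, and Pclo was higher under resveratrol. Unc13a encodes Munc13-1, which primes vesicles for fusion. It read 1132, 1482, 1483, 1779 and 1491 in young controls and 1174, 1155, 1026, 1339 and 1266 in old controls. Under CR, Unc13a read 709, 576, 606, 758 and 539.9, and under resveratrol 723, 548, 873, 702 and 660.1, all under the lowest control array. The differences were -0.91 (SE 0.123, adjusted p = 1.01e-05) and -0.78 (SE 0.123, adjusted p = 6.94e-05). Bsn encodes bassoon, a large scaffold of the active zone, and read 2509.8, 3059, 3636, 3649 and 3127 in young and 3338, 2609.8, 2328, 2667 and 2749 in old controls. Under CR, Bsn read 1582, 1350.1, 1811, 1981 and 1412, and under resveratrol 1794, 1719.9, 2526, 2080 and 1516. The CR arrays lay apart from the controls, and 1 resveratrol array reached the range of the controls. The differences were -0.76 (SE 0.132, adjusted p = 0.000144) and -0.52 (SE 0.132, adjusted p = 0.00498).

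Pclo encodes piccolo, the close relative of bassoon. Its brightest probe set read 3389, 3775, 4196, 4352 and 3206 in young controls and 4495, 3365, 3732, 3809.9 and 3703 in old controls. Under CR, Pclo read 3895, 4290.1, 4250.1, 3909.9 and 4018, and under resveratrol 4317, 4015, 5546, 4889 and 4259. The groups overlapped, with 0.27 (SE 0.093, adjusted p = 0.0371) under resveratrol and 0.10 under CR. Without old control replicate 2, 3, 4 or 5 or resveratrol replicate 3 or 4 the adjusted p under resveratrol was 0.0589 to 0.117. Rims1 differed by -0.05 under CR and 0.06 under resveratrol.

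Of the 3 genes of vesicle endocytosis, Dnm1, which encodes the GTPase that pinches off the retrieved vesicle, was lower in both diets without overlap. Its mean fell from 15587 ± 1298 in old controls to 10196 ± 1292 under CR and 9893 ± 1672 under resveratrol, and was 15698 ± 1209.6 in young controls. These are -0.62 (SE 0.097, adjusted p = 4.51e-05) and -0.67 (SE 0.097, adjusted p = 2.52e-05). Amph, amphiphysin, which brings dynamin to the vesicle neck, was higher under CR, with 0.39 (SE 0.081, adjusted p = 0.000731), from 4174 ± 414 to 5479.6 ± 452. Under resveratrol it differed by 0.09. Synj1, the lipid phosphatase that uncoats vesicles, was not called against old controls, and was higher under CR than in young controls by 0.19 (SE 0.073, adjusted p = 0.043). That call was lost without young control replicate 2, 3, 4 or 5 or CR replicate 1 or 3 (adjusted p = 0.0514 to 0.149).

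Among the postsynaptic scaffolds, Dlg4 and Shank3 were lower and Homer1 was higher in both diets. Dlg4 encodes PSD-95, the main scaffold of excitatory synapses. It read 2155, 2588, 3719.8, 3107 and 2959 in young controls and 2895, 2627, 2749, 2745 and 2287 in old controls. Under CR, Dlg4 read 1793, 1278, 1305, 1552 and 1329.8, and under resveratrol 1337, 1290.3, 1666, 1288 and 1224. No diet array reached a control array. The differences were -0.88 (SE 0.121, adjusted p = 1.11e-05) and -0.97 (SE 0.121, adjusted p = 5.19e-06). Shank3 links the PSD-95 complex to the actin-bound layers beneath it, and read 1851, 1891, 2909, 2686 and 2447 in young controls and 2176, 2184, 1809.9, 2132 and 2196 in old controls. Under CR, Shank3 read 1065, 904, 1177, 1133 and 980.3, and under resveratrol 1194, 1231, 1439, 1389 and 1177. Here too the diet arrays lay under every control array, with -1.0 (SE 0.111, adjusted p = 1.12e-06) and -0.71 (SE 0.111, adjusted p = 6.22e-05). Shank1 had means of 45.0 to 83.0 around the signal cut-off of 62.66, so its differences (-0.63 and -0.91, neither called) rest on dim signal.

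Homer1 encodes long scaffold isoforms and a short isoform induced by activity, and 6 of its probe sets were tested. The brightest one read 2662, 3251, 3433, 3293 and 3579 in young controls and 2880.4, 2215, 2871, 1823 and 1938 in old controls. Under CR, Homer1 read 5836, 4969.8, 5322, 4133 and 4347, and under resveratrol 4976, 3536, 4599.9, 4109.9 and 3461. All diet arrays were above all old control arrays, and the CR arrays were also above all young control arrays. The differences from old controls were 1.08 (SE 0.131, adjusted p = 2.41e-06) and 0.83 (SE 0.131, adjusted p = 6.16e-05). Against young controls they were 0.60 (SE 0.131, adjusted p = 0.00102) under CR and 0.34 (SE 0.131, adjusted p = 0.0447) under resveratrol. The latter call was lost without young control replicate 1, 2, 3 or 4, old control replicate 2, CR replicate 2 or resveratrol replicate 1, 3 or 4 (adjusted p = 0.0508 to 0.129). With age the brightest probe set differed by -0.49 (adjusted p = 0.058), and leaving out young control replicate 1, old control replicate 1, old control replicate 3 or CR replicate 1 gave adjusted p of 0.0272, 0.0353, 0.0412 and 0.0497.

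Homer1 was the only member with probe sets called with age, p-values of single probe sets being adjusted over all probe sets tested. Among 23768 probe sets tested, 0.278% were lower and 0.572% higher with age, and of 83 of the members 3 were lower, all of Homer1. The largest difference was at 1436387_at, which read 2041, 4735, 4537, 3731 and 4590.2 in young controls and 1639.8, 1429, 2203, 789 and 833 in old controls. Under CR, 1436387_at read 1763, 1972, 2271, 2126 and 1756, and under resveratrol 3536, 3374, 4331, 3647 and 3251. Young control replicate 1 read below the highest old control array, while the other 4 young arrays and all resveratrol arrays lay above every old control and CR array. The differences were -1.56 (SE 0.228, adjusted p = 0.00101) with age, 0.62 (SE 0.228, adjusted p = 0.0443) under CR and 1.499 (SE 0.228, adjusted p = 4.74e-05) under resveratrol. CR and resveratrol differed from each other at this probe set by -0.88 (SE 0.228, adjusted p = 0.02). The other 2 were 1425710_a_at, with -0.78 (SE 0.159, adjusted p = 0.0168) with age and 0.71 under CR, and 1439662_at, with -0.50 (SE 0.104, adjusted p = 0.0183) and 0.51. The sources used here do not say which isoform each probe set measures.

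**Figure D4:**
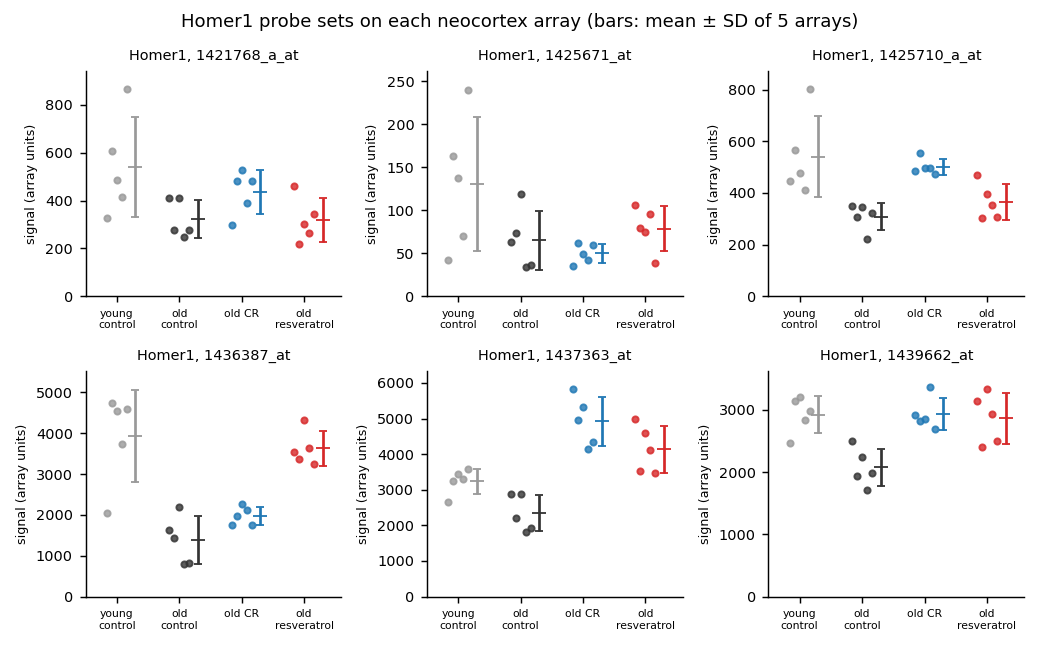
Signal of the 6 tested Homer1 probe sets on each of the 20 neocortex arrays, with the mean and SD of 5 arrays. At 1436387_at the resveratrol arrays lie at 3251 to 4331 and the CR arrays at 1756 to 2271, while at 1437363_at both diet groups lie above the old controls.

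Of 5 neurexins and neuroligins, Nrxn2 and Nlgn2 were lower in both diets and none was higher. Nlgn2 encodes the neuroligin of inhibitory synapses. It read 1691, 2225, 2547, 2868 and 2537 in young controls and 2260, 2374, 1764, 2132 and 2398 in old controls. Under CR, Nlgn2 read 1036, 976, 907, 1322 and 1034, and under resveratrol 1129, 1276, 1735, 1291 and 1023. The diet arrays lay under every old control array, and 1 resveratrol array was above the lowest young one. The differences were -1.05 (SE 0.139, adjusted p = 7.03e-06) and -0.78 (SE 0.139, adjusted p = 0.000234). Nrxn2, a presynaptic neurexin, read 1402, 1731, 2128, 2038 and 2324 in young controls and 1617, 1638, 1559, 1585 and 2039.6 in old controls. Under CR, Nrxn2 read 1018, 836, 858, 1017 and 887, and under resveratrol 948, 1043, 1428, 815 and 736, with -0.87 (SE 0.145, adjusted p = 8.6e-05) and -0.80 (SE 0.145, adjusted p = 0.000271). Its groups separated in the same way. Nlgn1, the neuroligin of excitatory synapses, differed by 0.09 and -0.17, and Nlgn3 by -0.40 (adjusted p = 0.0542) and -0.13. Nrxn3 differed by -0.11 and 0.18, and none of these 3 was called against old controls.

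The kinase subunits Camk2a and Camk2b, which act in synaptic plasticity, were each called lower in 1 diet, and the calmodulin-binding protein Nrgn in both. Nrgn, neurogranin, read 4587, 6539.9, 8261, 8802 and 8725 in young controls and 6613, 5125, 6242, 5313 and 5369 in old controls. Under CR, Nrgn read 3232, 3269, 3678, 2924 and 3198, and under resveratrol 3155, 2079, 2899, 4430.5 and 2645. The diet groups did not overlap either control group, with -0.81 (SE 0.163, adjusted p = 0.000613) and -0.95 (SE 0.163, adjusted p = 0.000149). Camk2a read 14939, 16835, 18679, 18292 and 19532 in young controls and 16213, 14846, 16260.3, 13993 and 15639.5 in old controls. Under CR, Camk2a read 19106, 13163, 14388, 17191 and 13249, and under resveratrol 11212, 11607, 12804, 14845 and 10515. It was called lower under resveratrol, with -0.34 (SE 0.101, adjusted p = 0.0132), where 1 array overlapped the old controls, and not under CR (-0.01). Camk2b was called lower under CR, with -0.29 (SE 0.076, adjusted p = 0.00498), and differed by -0.07 under resveratrol.

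The neuronal pentraxins, secreted proteins that gather glutamate receptors at synapses, were represented by Nptx1 and Nptx2. Nptx2, whose transcript is known to rise with activity, read 402, 822, 899, 767 and 1118 in young controls and 496, 565, 451, 422 and 528 in old controls. Under CR, Nptx2 read 217, 249, 231, 273 and 304, and under resveratrol 250, 307, 521, 289.8 and 222. The CR arrays were under all control arrays, and 1 resveratrol array was inside the range of the controls. The differences were -0.95 (SE 0.214, adjusted p = 0.0016) and -0.69 (SE 0.214, adjusted p = 0.0186). Without resveratrol replicate 1 or 5 the adjusted p under resveratrol was 0.0502 and 0.0609. Nptx1 was not called against old controls (0.19 and 0.10). With age the pair differed by -0.36 for Nptx1 (adjusted p = 0.068) and -0.64 for Nptx2 (adjusted p = 0.146). Without young control replicate 1 both were called lower with age, at adjusted p of 0.0079 and 0.0101, and without old control replicate 1 Nptx1 was (adjusted p = 0.0412).

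Sncb, beta-synuclein, a soluble presynaptic protein, was lower in both diets. It read 3146, 3389, 3949, 4349 and 4605 in young controls and 3641, 3444, 3413, 2971 and 3167 in old controls. Under CR, Sncb read 1863, 1910.4, 2112, 2048 and 1723, and under resveratrol 2055, 1766, 2345, 2300 and 1986. All diet arrays lay under all control arrays, with -0.79 (SE 0.098, adjusted p = 3.93e-06) and -0.68 (SE 0.098, adjusted p = 2.7e-05). Gap43, the growth cone protein of extending axons, was not called in any comparison, with -0.10 (95% interval -0.36 to 0.17) under CR and -0.25 (-0.52 to 0.02) under resveratrol.

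The diets were also compared with each other. Of 38, Amph and Camk2a were higher under CR than under resveratrol and Nrxn3 was lower, against 3.71% of all genes higher and 5.87% lower. The differences were 0.30 (SE 0.081, adjusted p = 0.023) for Amph, 0.33 (SE 0.101, adjusted p = 0.0387) for Camk2a and -0.30 (SE 0.091, adjusted p = 0.0424) for Nrxn3. Each of the 3 calls was lost in fits that left out 1 array. For Amph the adjusted p was 0.0517 to 0.0582 without CR replicate 2 or 3 or resveratrol replicate 2 or 5. For Camk2a it was 0.0502 to 0.108 without CR replicate 1 or 4 or resveratrol replicate 1, 2, 3 or 5, and for Nrxn3 0.0505 to 0.115 without young control replicate 2, CR replicate 2, 3, 4 or 5 or resveratrol replicate 3, 4 or 5. For the 14 members lower in both diets the difference between the diets was -0.29 to 0.14 and none was called, which does not show that the diets act alike on them. The widest of these differences was that of Shank3, at -0.29 (95% interval -0.52 to -0.06).

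Single probe sets separated the diets in further members. Of 83 tested, 8 were higher and 3 lower under CR than under resveratrol, against 4.0% and 4.64% of all probe sets. Syn2 was higher under CR at 1449030_at, with 0.56 (SE 0.087, adjusted p = 0.000965), and at 1460230_at, with 0.35 (SE 0.079, adjusted p = 0.00916). Syt1 was higher at 1421990_at, with 0.50 (SE 0.108, adjusted p = 0.00666), and at 1431191_a_at, with 0.57 (SE 0.142, adjusted p = 0.015). Synj1 was higher at 1436334_at, with 0.43 (SE 0.092, adjusted p = 0.00638), and Sv2b at 1435687_at, with 0.40 (SE 0.114, adjusted p = 0.0316). Pclo was lower at 1455373_at, with -0.51 (SE 0.127, adjusted p = 0.0154), as was Homer1 at 1436387_at. The remaining 3 are the brightest probe sets of Amph, Camk2a and Nrxn3. Of the 8 named here, the groups did not overlap at 1449030_at, 1460230_at, 1421990_at, 1436334_at, 1455373_at and 1436387_at, and overlapped at the other 2.

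Probe sets of the same gene disagreed in several members. Of 83 member probe sets tested, 29 were lower and 12 higher under CR, against 15.6% and 12.2% of all probe sets, and 35 were lower and 6 higher under resveratrol, against 14.0% and 11.2%. In 25 members with 2 or more tested probe sets, opposite calls were found under CR for Cplx1, Dlg4 and Camk2a and under resveratrol for Cplx2 and Pclo. Cplx1 was lower under CR at 1417747_at, from 5620.4 ± 393 to 3726 ± 409.8 (-0.60), and lower there under resveratrol (-0.81), while its brightest probe set was higher under CR. Dlg4 was lower at a second bright probe set, 1419581_at (-1.10 and -1.35), and higher under CR at 1460261_at, which is dim at 52.6 ± 22.6 in old controls and 105 ± 13.4 under CR. Cplx2 was lower under resveratrol at 1436383_at, with -0.40 (SE 0.134, adjusted p = 0.032). Pclo was lower at 1452423_at in both diets (-0.56 and -0.68). Camk2a was lower in both diets at 1442707_at (-0.82 and -0.76) and higher under CR at 1443876_at (0.43). With the probe sets of each gene averaged, Cplx1 had the opposite sign under CR (-0.07, adjusted p = 0.552), as had Pclo under resveratrol (-0.11, adjusted p = 0.371) and Syp under resveratrol (0.28, adjusted p = 0.565). Calls were then also lost under CR for Syp (-0.17, adjusted p = 0.721), Cplx2 (0.06, adjusted p = 0.773), Dlg4 (-0.27, adjusted p = 0.115) and Nptx2 (-0.52, adjusted p = 0.0683). Under resveratrol they were lost for Cplx2 (0.0050, adjusted p = 0.986), Vamp1 (-0.30, adjusted p = 0.0529), Bsn (-0.77, adjusted p = 0.0858) and Nptx2 (-0.47, adjusted p = 0.118). The averages of Syp and Bsn each include a probe set too dim to be tested. Syp has 1 tested probe set, and the 2 tested probe sets of Bsn were lower in both diets.

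Several members that were not called lower at their brightest probe set had further probe sets that were lower. Syn2 was lower at 1449030_at in both diets, with -0.55 (SE 0.087, adjusted p = 6.39e-05) under CR and -1.11 (SE 0.087, adjusted p = 3.09e-08) under resveratrol. Rab3a was lower at 1422589_at (-0.20 and -0.38), and under resveratrol so were Stx1a at 1448366_at (-0.62), Synj1 at 1436334_at (-0.43) and Nptx1 at 1422130_at (-0.51). Syt1 was lower under resveratrol at 1421990_at (-0.41), and Snap25 was higher there at 1447763_at (0.83), from 198 ± 41.9 to 355 ± 98.8. In the 24 members not lower in both diets, 8 of 37 further probe sets were lower and 6 higher under CR. Under resveratrol 14 were lower and 3 higher. Of all probe sets, 15.6% were lower and 12.2% higher under CR, and 14.0% and 11.2% under resveratrol. The members were split by their calls on these same arrays, so the counts are not separate observations. In the 14 lower in both diets, 5 of 8 further probe sets were lower under each diet, and 1, of Dlg4, was higher under CR. Some of those differences were larger than at the brightest probe set, as for Dnm1 at 1427754_a_at (-1.51 and -1.71), Vamp2 at 1420833_at (-1.19 and -1.58) and Nrxn2 at 1455499_at (-1.63 and -1.60).

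**Figure D5:**
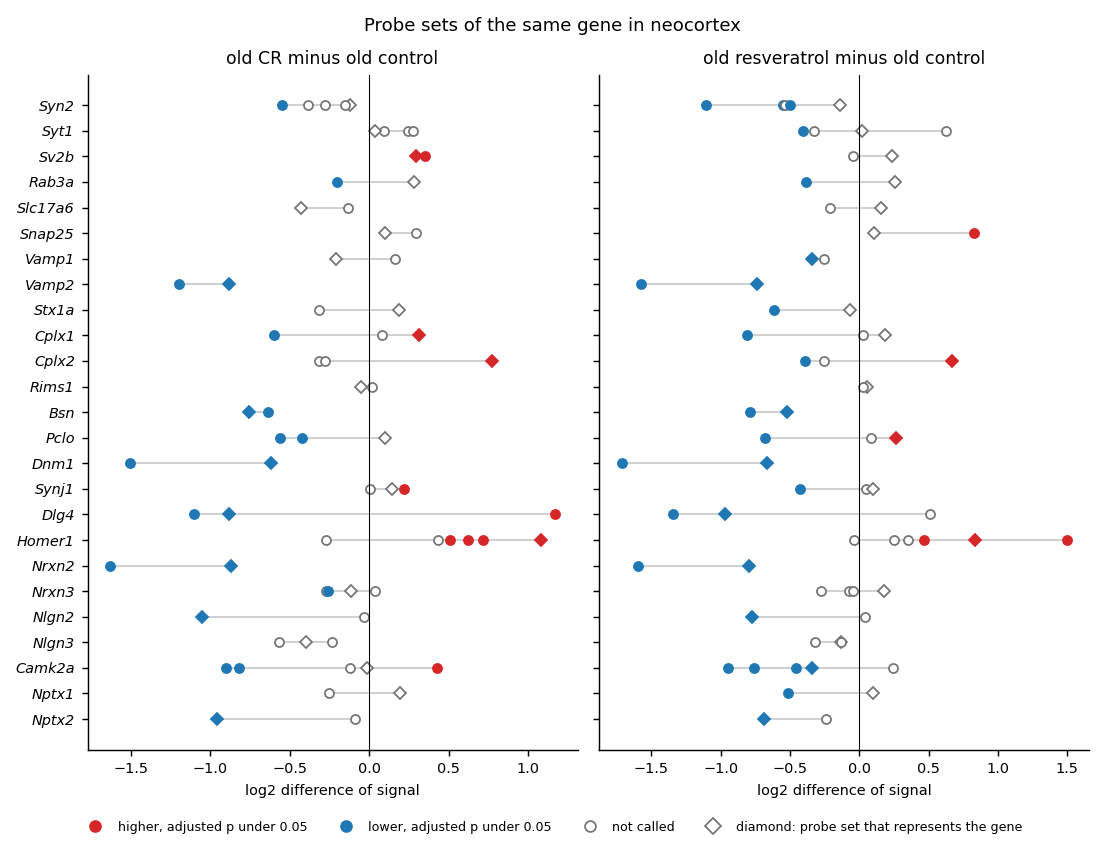
Difference in log2 signal from old controls for every tested probe set of the 25 genes with 2 or more, under CR (left) and resveratrol (right). Red and blue mark probe sets called higher and lower, open symbols those not called, and diamonds the probe set that represents the gene. Wide lines, as for Dnm1, Dlg4 and Cplx1, are genes whose probe sets differ.

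Some measures of the whole array moved with the diets. Over all genes, the first principal component put the 10 diet arrays at 10.3 to 24.7 and the 10 control arrays at -28.9 to -11.9. Beta-actin has control probe sets at its 3' and 5' ends, and their log2 difference, a sign of RNA quality, was 0.546 ± 0.064 (SD) on the old control arrays, 0.708 ± 0.045 on the CR arrays and 0.887 ± 0.094 on the resveratrol arrays. Neither diet group overlapped the old controls. The two-sided exact permutation p was 0.00794 for each, which no pair of groups of 5 can go below, and 0.051 after adjustment for the 45 tests made. The same measure of GAPDH overlapped, with exact permutation p of 0.984 under CR and 0.317 under resveratrol. The spiked-in poly-A controls were higher by 1.04 under resveratrol without overlap. Under CR they differed by 0.37 and overlapped (exact permutation p = 0.159). The spiked-in hybridization controls overlapped in both diets, with exact permutation p of 0.286 under CR and 0.0873 under resveratrol. With the mean of the actin and GAPDH differences as a covariate, 19 members were called under CR and 11 under resveratrol. Calls over all 13057 genes were then 3118 under CR and 724 under resveratrol. Without the covariate 2306 genes were lower and 1731 higher under CR, and 1829 lower and 1630 higher under resveratrol. The calls lost were Sv2b and Cplx1 under CR (adjusted p = 0.135 and 0.126), with differences of 0.25 and 0.22. Under resveratrol 8 were lost. Their differences became larger for Bsn (-0.71, adjusted p = 0.0834), Camk2a (-0.49, adjusted p = 0.121), Cplx2 (0.75, adjusted p = 0.153) and Nptx2 (-0.82, adjusted p = 0.233). They became smaller for Slc17a7 (-0.87, adjusted p = 0.114), Nrgn (-0.76, adjusted p = 0.138), Vamp1 (-0.26, adjusted p = 0.473) and Pclo (0.15, adjusted p = 0.67).

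Single arrays also stood apart for these genes. Young control replicate 1 was the lowest of its 5 for 26 of 38 members, and resveratrol replicate 3 the highest of its 5 for 26. Old control replicate 1 was the highest of its group for 21. In every fit that left out 1 array, 20 of the 21 calls under CR and 16 of the 19 under resveratrol remained, the exceptions being Sv2b under CR and Vamp1, Pclo and Nptx2 under resveratrol.

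Lists of cell type markers were measured on the same arrays. Beside their counts stand the shares of all genes, 17.7% lower and 13.3% higher under CR and 14.0% and 12.5% under resveratrol. Of 15 pan-neuronal markers measured, 4 were lower and 1 higher under CR and 5 lower and 1 higher under resveratrol, with medians of -0.13 and -0.14. Thy1, a surface protein of neurons, was lower in both, with -0.46 (SE 0.096, adjusted p = 0.000854) and -0.40 (SE 0.096, adjusted p = 0.00323). Their summed signal was 111872 to 132957 in young controls, 111847 to 129280 on the old control arrays, 102350 to 117901 on the CR arrays and 101227 to 116699 on the resveratrol arrays. The groups overlapped, with exact permutation p of 0.159 for CR and 0.0794 for resveratrol. Of 15 pyramidal neuron markers, 1 was lower and 2 higher under CR and 2 lower and 3 higher under resveratrol. The medians of these markers were -0.11 and -0.01, against -0.03 and -0.003 for all genes. Neurod6, a transcription factor of pyramidal neurons, was lower with age (-0.67) and higher in both diets (0.58 and 0.64), while Cux1 was lower under CR (-0.36) and Lmo4 under resveratrol (-0.39).

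Markers of striatum, which lies next to neocortex, also had signal. Beside 17.7% and 14.0% of all genes, 9 of 12 striatal markers measured were lower under CR and 3 under resveratrol. Their summed signal was 32374 to 45284 on old control arrays, 13090 to 40984 on CR arrays and 12718 to 40483 on resveratrol arrays, and it overlapped between groups (exact permutation p = 0.0317 for CR and 0.27 for resveratrol, adjusted p = 0.165 and 0.405). Among non-neuronal markers, the endothelial sum was higher without overlap under CR (by 0.313) and resveratrol (by 0.405), and the microglial sum with age (by 0.399) and under resveratrol (by 0.310), each with an exact permutation p of 0.00794 and an adjusted p of 0.051. Much of the endothelial rise lay in Slc2a1. Old control, CR and resveratrol arrays had mean endothelial sums of 5752, 7145 and 7660. Slc2a1 alone had means of 2033, 3313 and 3317, in the same order. No other endothelial marker was called higher with CR, and Tek was lower (-0.435). With resveratrol, Cldn5 was also higher (0.488). Of single genes, 7 of 14 microglial markers were higher with age, 5 were lower under CR and 6 were higher under resveratrol. The shares of all genes were 1.09% higher and 0.383% lower with age, 13.3% and 17.7% under CR, and 12.5% and 14.0% under resveratrol. Of 12 astrocyte markers, 1 was higher with age, 2 were higher and 3 lower under CR, and 4 were higher and 1 lower under resveratrol. Of 13 oligodendrocyte markers, 1 was higher with age, 4 were lower under CR, and 1 was higher and 2 lower under resveratrol. The part of these shifts in the synaptic differences was not tested.

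Other genes of the same processes moved in both directions. Of 62 further vesicle and release genes measured, 16 were lower and 5 higher under CR and 14 lower and 8 higher under resveratrol, with medians of -0.13 and -0.10. The clathrin adaptor subunit Ap2a1 was lower in both diets, with -1.34 (SE 0.122, adjusted p = 7.33e-08) and -1.19 (SE 0.122, adjusted p = 4.64e-07), as were the vesicular GABA transporter Slc32a1 (-1.09 and -0.72) and the Rab3 effector Rph3a (-1.05 and -0.90). Itsn1, an endocytic scaffold, was higher under resveratrol, with 1.10 (SE 0.239, adjusted p = 0.00144). Of 45 further postsynaptic and adhesion genes, 12 were lower and 9 higher under CR and 12 lower and 7 higher under resveratrol. Pacsin1, a membrane-bending protein, was lower in both, with -0.80 (SE 0.091, adjusted p = 1.21e-06) and -0.84 (SE 0.091, adjusted p = 8.29e-07). The synaptic adhesion gene Lrrtm3 was higher under resveratrol, with 0.80 (SE 0.107, adjusted p = 1.15e-05). None of the 62 and none of the 45 was called with age. Beside the counts of both lists stand the shares of all genes, 17.7% lower and 13.3% higher under CR and 14.0% and 12.5% under resveratrol.

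Activity-regulated genes, which neurons switch on after firing, were lower in part of the list. Of 28 measured, 14 were lower and 1 higher under CR and 6 lower and 4 higher under resveratrol, with medians of -0.58 and -0.25. Of all genes 17.7% were lower and 13.3% higher under CR, and 14.0% and 12.5% under resveratrol. Under CR the immediate early genes Arc, with -1.75 (SE 0.384, adjusted p = 0.00136), Junb, with -1.46 (SE 0.192, adjusted p = 6.79e-06), and Fos, with -1.25 (SE 0.349, adjusted p = 0.00871), were lower. Under resveratrol Junb was lower (-1.14), while Egr3 was higher, with 0.74 (SE 0.147, adjusted p = 0.00061). With age 2 were lower, Egr3, with -0.75 (SE 0.147, adjusted p = 0.00857), and the neurotrophin Bdnf, with -0.60 (SE 0.12, adjusted p = 0.011). Between the diets 2 of the 28 were higher and 4 lower under CR than under resveratrol, against 3.71% and 5.87% of all genes.

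The median signal was over the cut-off of the tissue for 37 of 38 members in neocortex, 26 in heart and 23 in gastrocnemius muscle. For 33 of 38 the lowest neocortex signal was above the highest signal in either of the other tissues. The exceptions were Shank1, Shank3, Homer1, Nlgn2 and Nlgn3. Homer1 read 3629 to 7409.6 in gastrocnemius and 878 to 1822 in heart, against 1823 to 5836 in neocortex, and Shank3 reached 2039 in heart. Syn1, by contrast, stayed at 313 or less in heart and 309 or less in muscle.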

How the data were processed

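RNA of neocortex, heart and gastrocnemius was hybridised to 60 Mouse Genome 430 2.0 arrays, 1 animal per array per the labels. The deposited values are linear signals that the authors made with GCOS 1.2 and scaled to a 2% trimmed mean of 500. Depth does not apply to arrays, and 5 arrays per group limit the precision. Signals were rescaled within a tissue to a common trimmed mean, floored at 1 and put on the log2 scale. Of 45101 probe sets, 34945 have 1 gene symbol, 932 several, 9160 none and 64 are controls, and 0 columns of values were left unmapped. Each gene is represented by its brightest probe set, judged by mean signal across the 60 arrays. Genes whose mean neocortex signal was under the 40th percentile (62.66) were left out, leaving 13057. The 20 neocortex arrays were fitted with limma 3.58.1 in R 4.3.3 (lmFit, and eBayes with a trend on mean signal), two-sided, with Benjamini-Hochberg adjustment over all genes and a threshold of 0.05. The methods' Student's t-test was run as an alternative on the same values. The fit was tested on simulated data. Marker sums and control probe sets were compared by two-sided exact permutation tests, adjusted over 45 tests. Figures were drawn with matplotlib 3.10.9, and summaries made with scipy 1.17.1, numpy 2.4.6 and pandas 2.3.3 in Python 3.11.15. The members and all gene lists were chosen with earlier results of these data known. Values of every array are given for up to 12 members with the smallest adjusted p and for members whose probe sets were called in opposite directions. Of the other lists, up to 4 called genes with the largest change per comparison could be named. Slc17a6 and Homer1 probe set values were added after they were seen. Other alternatives were quantile normalization, the signal as deposited, an offset of 16, other filters, other rules for probe sets, a covariate for the difference between 3' and 5' control probe sets, a replicate block, and leaving out each array. Array scan dates were not used here.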

Additional observations from a re-analysis of the deposited data

Results flagged for a closer look

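Within a group of 5 arrays, 1 array stood far from the other 4 by Dixon's criterion (a gap over 0.71 of the range) in 11 of 152 member and group pairs, or 7.24%, where chance gives about 1 in 20. In young controls, replicate 1 was low for Syp (6369, others 8425 to 9006) and for Vamp2 (7784, others 9380 to 9801). In old controls, replicate 1 was high for Amph (4907, others 3901 to 4048) and replicate 5 for Nrxn2 (2039.6, others 1559 to 1638). Replicate 3 of the old controls was low for Shank3 (1809.9, others 2132 to 2196), Nlgn1 (445, others 519 to 552) and Nlgn3 (250.4, others 357 to 391). Under CR, replicate 1 was high for Syn2 (6256, others 4926 to 5262) and low for Rab3a (10017, others 13177 to 14417), and replicate 4 was low for Amph (4697, others 5603 to 5873). Under resveratrol, replicate 3 was high for Dlg4 (1666, others 1224 to 1337).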

How the results depend on the processing

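With age, 0 members were called, against 1 (Homer1) with quantile normalization, with each gene's probe sets averaged and with the replicate block, and 0 to 3 when each array was left out. Under resveratrol the 19 members called became 11 with the 3' to 5' difference as a covariate, where the differences of 4 of the 8 lost were larger than before and of 4 smaller. Over all 13057 genes, 724 were called in that fit, against 1829 lower and 1630 higher without the covariate. The 3 members called between CR and resveratrol became 1 with no filter, 1 with eBayes without the trend, 1 with only the 2 groups compared, 1 with probe sets averaged, 0 with the 3' to 5' covariate and 0 with the methods' t-test on log2 or unlogged signal, and 0 to 3 when each array was left out. Leaving out each array of the 2 groups compared gave 20 to 22 calls under CR and 17 to 20 under resveratrol. It gave 20 to 24 for CR against young controls and 18 to 20 for resveratrol against young controls. With probe sets averaged, the sign changed for Syp (0.276) and Pclo (-0.11) under resveratrol and Cplx1 (-0.0684) under CR. The average of Syp includes a probe set too dim to be tested. It also changed against young controls for Cplx1 (-0.054), Cplx2 (-0.156) and Homer1 (-0.306) under CR, and for Cplx2 (-0.213), Pclo (-0.0135), Homer1 (-0.262) and Nrxn3 (-0.081) under resveratrol. The causes were not tested. In every setting run, 14 of 21 calls under CR and 10 of 19 under resveratrol remained. No pairing of arrays by replicate number was detected, which does not show that the numbers are unrelated. Deviations of arrays sharing a number correlated at -0.162 to 0.158, 3 of 30 pairs were over 0.1, and 5 of 20 arrays were closest to their own number. With the replicate block 21 members were called under CR, 19 under resveratrol, 2 between the diets, 21 for CR against young controls and 21 for resveratrol against young controls. Dim signal limits Shank1, which is near the cut-off.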

Other observations

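Genes of the mitochondrial respiratory chain, which supplies ATP, were higher in part of the list. Of 19 measured, 11 were higher and 0 lower under CR in limma, and 5 were higher and 1 lower under resveratrol, with medians of 0.20 and 0.07. Of all genes 13.3% were higher and 17.7% lower under CR, and 12.5% and 14.0% under resveratrol. With age 0 were called. Between the diets 5 were higher under CR than under resveratrol and 0 lower, against 3.71% and 5.87% of all genes.

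Markers of other neurons and regions were measured in short lists. Beside their counts stand the shares of all genes, 17.7% lower and 13.3% higher under CR and 14.0% and 12.5% under resveratrol. Of 13 interneuron markers, 1 was higher and 3 lower under CR, and 2 were higher and 1 lower under resveratrol. Of 12 thalamic and subcortical markers, 1 was lower under CR and 0 were called under resveratrol. Of 8 hippocampal markers, 1 was higher and 2 lower under CR and 0 were called under resveratrol. Of 7 choroid plexus markers, 0 were called in either diet, and their summed signal ran from 2934 to 28987 within the old controls. Of 9 endothelial markers, 1 was higher and 1 lower under CR and 2 were higher under resveratrol.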
